A study of Mus musculus with 6 samples.

Results

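The genes described here are 10 members of the Hippo pathway and its output: the co-activator genes Yap1 and Wwtr1 (which encodes TAZ), the DNA-binding partners Tead1, Tead2, Tead3 and Tead4, the kinase genes Lats1 and Lats2, and the target genes Ctgf and Cyr61. They were taken by name from a table of 33924 gene names, and all 10 were found and had enough reads to be tested among 20001 genes. RNA of whole tissue, harvested at 6 months in both groups, was sequenced from FVB/NJ mice, an inbred strain. The 6 libraries form 2 groups of 3: lung tumours induced with urethane, a chemical carcinogen given by intraperitoneal injection at 1 g per kg (replicates 1, 2 and 4), and normal lung of mice given saline (replicates 1, 2 and 3). The labels do not say how tumour was separated from surrounding lung or whether each library is 1 animal. P-values therefore reflect only how these libraries vary. Apart from tumour replicate 2, described below, this variation may be technical.

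In the Hippo pathway the kinases MST1 and MST2, encoded by Stk4 and Stk3, activate LATS1 and LATS2, which phosphorylate YAP and TAZ and keep them out of the nucleus. YAP and TAZ that escape this enter the nucleus, bind TEAD proteins and switch on genes such as Ctgf, Cyr61 and Ankrd1, and also Lats2 and Amotl2, whose products restrain YAP in turn. In the lung the pathway is known for its part in the formation of alveolar type 1 (AT1) cells and in regeneration after injury. RNA counts measure neither the phosphorylation nor the location of YAP and TAZ.

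Libraries held 48509129 to 62336537 counted reads in tumours and 38996532 to 59037341 in control lung. The limit a count of 0 allows, 3 reads, thus equals 0.0481 to 0.0769 CPM (counts per 1000000 reads). This range is before the TMM scaling between libraries that the other CPM values carry. No pair of libraries within a group agreed within sampling noise, so each was counted as its own sample. Tumour replicate 2 stood apart in sex-linked genes, at 3359 CPM of Xist and 0.0539 to 0.215 CPM of 4 Y-linked genes. Its lowest Y-linked values lie at the limit of 3 reads. Elsewhere Xist was 5.82 to 32.9 CPM and the Y-linked genes 37.6 to 171 CPM. Tumour replicate 2 thus has a female pattern and came from another animal than tumour replicates 1 and 4. All control libraries have a male pattern. The fit held no term for sex, and its part in the changes was not tested. Of 8 markers of alveolar type 2 (AT2) cells, all rose in the tumours, with a summed level of 28576 to 65233 CPM in tumours and 9885 to 16426 CPM in control lung, and all 6 general epithelial markers rose as well. Markers of several other lung cell types fell: 6 of 8 AT1 markers (1 rose), all 12 endothelial, 9 of 10 fibroblast and all 8 smooth muscle and pericyte markers. Falls also covered all 4 mesothelial, 5 ciliated and 3 club cell markers and 4 of 5 leukocyte markers.

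Of the 10 members, 6 changed in tumours, 5 lower and 1 higher (adjusted p under 0.05 over all genes tested, by the quasi-likelihood test of edgeR with Benjamini-Hochberg adjustment). Across all genes tested, 42.0% changed, with 23.8% lower and 18.1% higher. The target genes Ctgf and Cyr61, the kinase gene Lats2, the TEAD gene Tead1 and Wwtr1 were the 5 that fell, by 1.96-fold for Wwtr1 to 4.47-fold for Ctgf. Lats1 was the member that rose, by 1.52-fold. Yap1, Tead2, Tead3 and Tead4 did not pass. The median log2 fold change of the 10 was -0.52, beside 0.01 over all genes tested. For 7 members the groups were fully separated in CPM, 5 with tumours below and 2 with tumours above, where this held for 56.0% of all genes tested (29.9% with tumours below and 26.1% with tumours above). Calls of the 5 lower members and of Lats1 held with each library left out in turn. In bulk tissue, fewer cells of a type and less RNA per cell cannot be told apart.

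**Figure D1:**
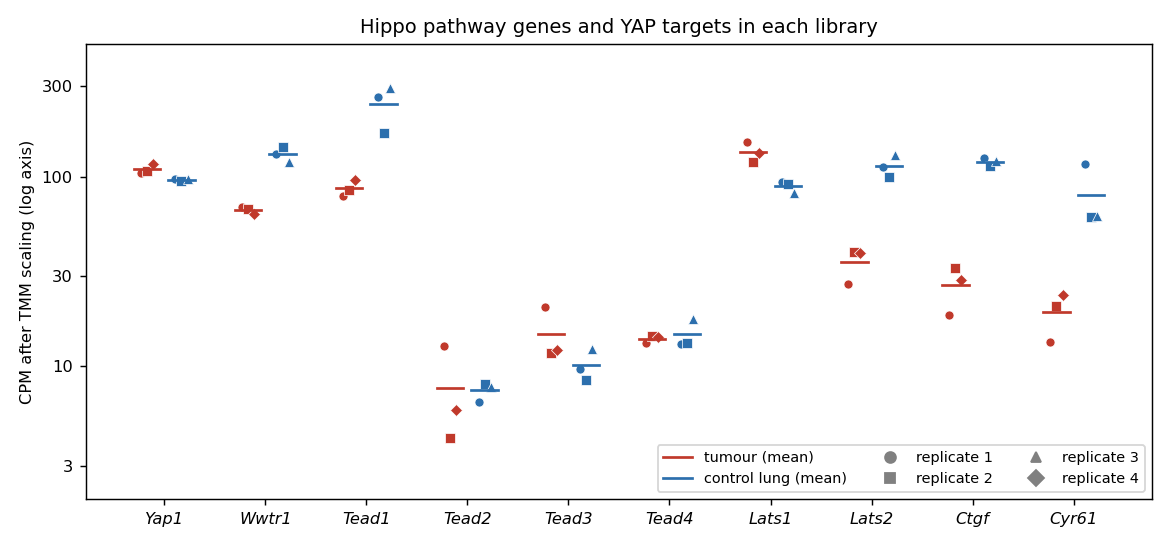
CPM after TMM scaling (log axis) of the 10 members in each library, with tumour on the left of control lung for each gene, 1 symbol per replicate number and a line at the group mean. Wwtr1, Tead1, Lats2, Ctgf and Cyr61 lie lower in all 3 tumours than in all 3 controls, and Yap1 and Lats1 lie higher.

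**Figure D2:**
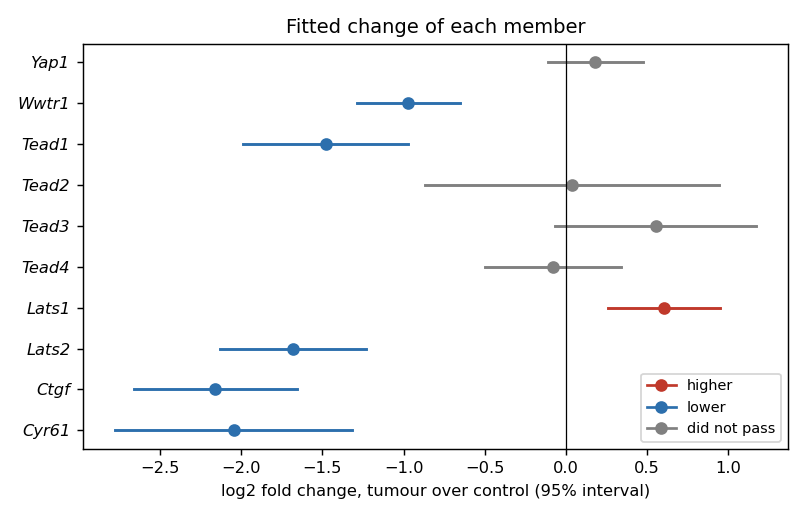
Log2 fold change of each member, tumour over control, with its 95% interval from the edgeR fit (3 libraries per group). The intervals of Yap1, Tead2, Tead3 and Tead4 include 0; Ctgf at -2.16 and Cyr61 at -2.05 lie farthest from it.

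The target genes had the largest falls among the members. Ctgf (chr10:24315248-24318489, mm9, plus strand) encodes connective tissue growth factor, a secreted matrix-associated protein of the CCN family and a standard readout of YAP activity. It had 18.7, 33.1 and 28.6 CPM in tumour replicates 1, 2 and 4, against 125, 113 and 121 CPM in control replicates 1, 2 and 3. All tumours lay below all controls, and tumour replicate 1 was the lowest library. The log2 fold change was -2.16 ± 0.22 (SE) with an edgeR adjusted p = 0.000148. Of the exon bases of Ctgf, 22.9% lie inside an antisense gene name, Gm15270, and the counting did not use strand. With all reads of Gm15270 taken off, the log2 fold change of Ctgf was -2.10 (edgeR adjusted p = 0.000163).

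Cyr61 (chr3:145309935-145312949, mm9, minus strand) encodes a CCN family protein that binds integrins. It had 13.4, 20.9 and 23.8 CPM in tumour replicates 1, 2 and 4, against 117, 61.1 and 62.2 CPM in control replicates 1, 2 and 3. The groups did not overlap, but control replicate 1 was well above the other controls, and tumour replicate 1 was again the lowest. The log2 fold change was -2.05 ± 0.32 (SE, edgeR adjusted p = 0.00125), and it was -1.67 to -2.21 with each library left out in turn. On the scale of reads per exon length, the ratio of Ctgf to Cyr61 within a library was 1.14, 1.29 and 0.977 in tumours and 0.873, 1.51 and 1.59 in controls. These ranges overlap, with a log2 difference of -0.18 between group means (two-sided exact permutation test, p = 0.6, adjusted p = 0.6 over 4 ratios).

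The core of the MCAT element that TEAD proteins bind, GGAATG or its reverse CATTCC, was searched on both strands from 250 bases before to 50 bases after the RefSeq transcript starts (GRCm38.p6). It occurred in 14.7% of all such windows and in at least 1 window of 16.6% of all genes. Sequences were matched for 7 of the 10 members (Yap1, Wwtr1, Tead2, Tead3, Lats1, Lats2 and Cyr61), and 5 of these held it, all but Tead2 and Lats1. Of the other YAP target genes listed, 13 of 19 were matched and 5 held it. The windows of Cyr61 (chr3:145649936-145650235, minus strand), Ankrd1 (chr19:36119795-36120094, minus strand) and Amotl2 (chr9:102717554-102717853, plus strand) are shown, and capitals mark the motif. They are examples of known YAP targets that were lower in the tumours and held the motif, so they do not link motif and fall. Lats2, Crim1 and Ptpn14 were also lower and held it, and are not shown.
Cyr61: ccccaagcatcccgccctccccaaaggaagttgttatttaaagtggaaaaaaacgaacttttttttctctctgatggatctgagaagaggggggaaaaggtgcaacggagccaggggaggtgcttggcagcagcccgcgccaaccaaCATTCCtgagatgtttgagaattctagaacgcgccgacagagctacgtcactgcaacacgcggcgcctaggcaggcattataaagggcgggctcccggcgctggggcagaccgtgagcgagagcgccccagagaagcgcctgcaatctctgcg
Ankrd1: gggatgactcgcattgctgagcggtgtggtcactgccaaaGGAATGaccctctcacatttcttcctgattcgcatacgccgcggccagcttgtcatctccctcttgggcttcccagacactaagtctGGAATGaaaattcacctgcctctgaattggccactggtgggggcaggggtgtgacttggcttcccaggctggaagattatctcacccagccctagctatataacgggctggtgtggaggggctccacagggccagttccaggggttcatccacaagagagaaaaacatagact
Amotl2: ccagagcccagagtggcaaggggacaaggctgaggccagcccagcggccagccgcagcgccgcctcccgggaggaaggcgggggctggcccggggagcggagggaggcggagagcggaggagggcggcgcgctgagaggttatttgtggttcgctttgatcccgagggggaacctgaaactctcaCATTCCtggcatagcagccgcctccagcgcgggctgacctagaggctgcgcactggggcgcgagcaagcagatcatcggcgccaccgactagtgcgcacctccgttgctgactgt
The match starts 103 bases before the start site in Cyr61, 210 and 123 bases before it in Ankrd1, and 65 bases before it in Amotl2. Of the target genes, F3, Foxf2 and Tgfb2 were lower without it in this window, and Axl, which holds it, did not pass the test. A match describes the letters of a window and does not show that it is bound.

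Of the co-activator genes, Wwtr1 fell in tumours and Yap1 did not pass the test. Yap1 (chr9:7931999-8004596, mm9, minus strand) had 104, 107 and 117 CPM in tumour replicates 1, 2 and 4, against 96.9, 94.4 and 97.6 CPM in control replicates 1, 2 and 3. Every tumour was above every control, by a small margin. The log2 fold change was 0.18 ± 0.13 (SE) with a 95% interval of -0.11 to 0.48, and it did not pass (edgeR adjusted p = 0.294). Wwtr1 (chr3:57259571-57379832, mm9, minus strand), the gene of TAZ, had 69.5, 67.7 and 63.3 CPM in tumours, against 131, 143 and 120 CPM in controls. Every tumour library of Wwtr1 was below every control, and the log2 fold change was -0.97 ± 0.14 (SE, edgeR adjusted p = 0.000763). Per exon length, Yap1 stood at 0.773, 0.812 and 0.953 of the Wwtr1 level in tumours and at 0.382, 0.342 and 0.421 of it in control lung. These levels depend on the length used. Yap1 has 9257 exon bases and a longest transcript (GENCODE M21) of 5282, and Wwtr1 has 4779 and 4697. Which of these genes was the more abundant in tumours is therefore not settled. The difference of the log2 ratio between groups does not depend on length. The log2 ratio of Yap1 to Wwtr1 was 1.15 higher in tumours (two-sided exact permutation test, p = 0.1, adjusted p = 0.133 over 4 ratios), where 0.1 is the smallest p that 3 against 3 libraries allow. A ratio within a library does not depend on scaling between libraries.

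Among the TEAD genes, which encode the DNA-binding proteins that carry YAP and TAZ to their targets, Tead1 (chr7:119822832-120050321, mm9, plus strand) was the only one to pass the test. It had 79.0, 85.2 and 96.1 CPM in tumour replicates 1, 2 and 4, against 262, 170 and 295 CPM in control replicates 1, 2 and 3. Control replicate 2 was the lowest control, still above all tumours, and the log2 fold change was -1.48 ± 0.22 (SE, edgeR adjusted p = 0.00102). Tead2 (chr7:52471123-52489005, mm9, plus strand) had 12.9, 4.2 and 5.88 CPM in tumours, against 6.46, 8.11 and 7.80 CPM in controls. Tumour replicate 1 was the highest library of Tead2 and the other 2 tumours were the lowest. Its log2 fold change was 0.04 ± 0.39 (SE, 95% interval -0.87 to 0.94, edgeR adjusted p = 0.95), and -0.54 without tumour replicate 1 (adjusted p = 0.0836).

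Tead3 (chr17:28468616-28487750, mm9, minus strand) had 20.7, 11.8 and 12.2 CPM in tumours, against 9.67, 8.46 and 12.3 CPM in controls. The groups overlapped through control replicate 3, and the log2 fold change was 0.55 ± 0.27 (SE, 95% interval -0.07 to 1.17, edgeR adjusted p = 0.137). Without tumour replicate 1 it was 0.27 (adjusted p = 0.310). Tead4 (chr6:128174306-128250841, mm9, minus strand) had 13.2, 14.5 and 14.3 CPM in tumours, against 13.2, 13.3 and 17.9 CPM in controls. Its groups overlapped, with a log2 fold change of -0.08 ± 0.18 (SE, 95% interval -0.50 to 0.34, edgeR adjusted p = 0.758).

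Tead1 made up a smaller part of the TEAD transcripts in each tumour than in each control library. Per exon length, the 4 genes summed to 18.2, 15.2 and 16.5 RPKM (CPM divided by exon length in kilobases) in tumours and to 30.5, 22.5 and 35.6 RPKM in control lung. Tead1 made up 46.8 ± 7.04% of this sum in tumours and 72.4 ± 4.62% in controls (SD, n = 3 each). Tead3 made up 20.1 ± 5.05% in tumours and 7.86 ± 0.680% in controls, Tead4 23.6 ± 3.19% in tumours and 14.1 ± 2.24% in controls, and Tead2 9.57 ± 4.93% in tumours and 5.65 ± 1.80% in controls (SD, n = 3 each). The levels of Tead2, Tead3 and Tead4 themselves did not pass the test. These shares depend on the length used, as does the ratio of Tead1 to the other TEAD genes summed. Exon bases and longest transcript (GENCODE M21) were 11237 and 9964 for Tead1 and 4668 and 3396 for Tead2. They were 4398 and 3443 for Tead3 and 3596 and 3076 for Tead4. The log2 ratio of Tead1 to the other TEAD genes summed differed by -1.59, tumour minus control (two-sided exact permutation test, p = 0.1, adjusted p = 0.133).

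**Figure D3:**
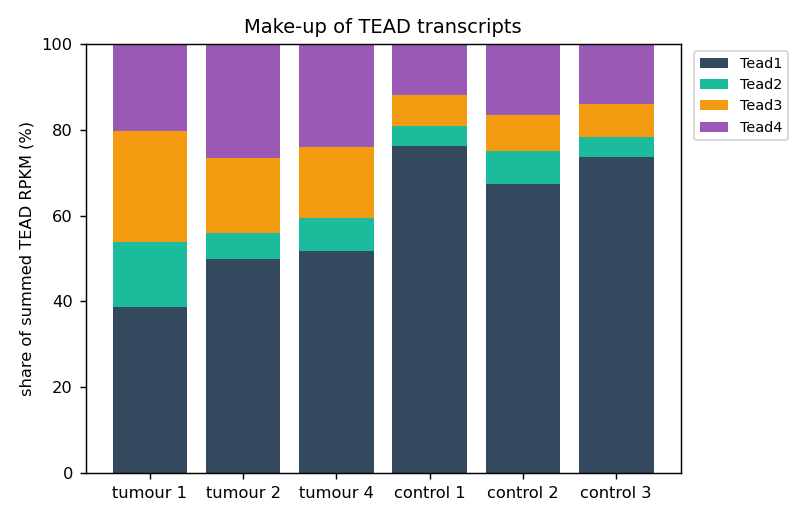
Share of each TEAD gene in the summed reads per exon length of the 4 genes, 1 bar per library, with the tumour libraries on the left and control lung on the right. Tead1 takes 38.7% to 51.7% of the sum in tumours and 67.3% to 76.3% in control lung.

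The kinase genes changed in opposite directions. Lats1 (chr10:7401007-7436256, mm9, plus strand) had 152, 119 and 133 CPM in tumour replicates 1, 2 and 4, against 93.7, 91.0 and 81.5 CPM in control replicates 1, 2 and 3. All tumours lay above all controls, and the log2 fold change was 0.60 ± 0.15 (SE, edgeR adjusted p = 0.0128). With libraries scaled by their totals alone, Lats1 had 0.50 and did not pass (adjusted p = 0.0732). Lats2 (chr14:58260914-58377225, mm9, minus strand), which is also a YAP target, had 27.2, 39.9 and 39.6 CPM in tumours, against 113, 99.6 and 130 CPM in controls. Its groups lay far apart, with tumour replicate 1 the lowest, and the log2 fold change was -1.68 ± 0.20 (SE, edgeR adjusted p = 0.000290). Of the exon bases of Lats2, 4.55% lie inside exons of its neighbour Xpo4, whose reads count for both names. Of the 32-base words of the Lats2 transcript (GENCODE M21), 56.7% also occur in Gm49361, a name annotated over the same locus, and 0% in any name elsewhere.

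Per exon length, Lats1 was 5.6, 2.97 and 3.36 times as abundant as Lats2 in tumours and 0.830, 0.914 and 0.628 times in control lung. Lats1 was thus the more abundant kinase transcript in all 3 tumours, and Lats2 in all 3 controls. The log2 ratio was 2.29 higher in tumours (two-sided exact permutation test, p = 0.1, adjusted p = 0.133).

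**Figure D4:**
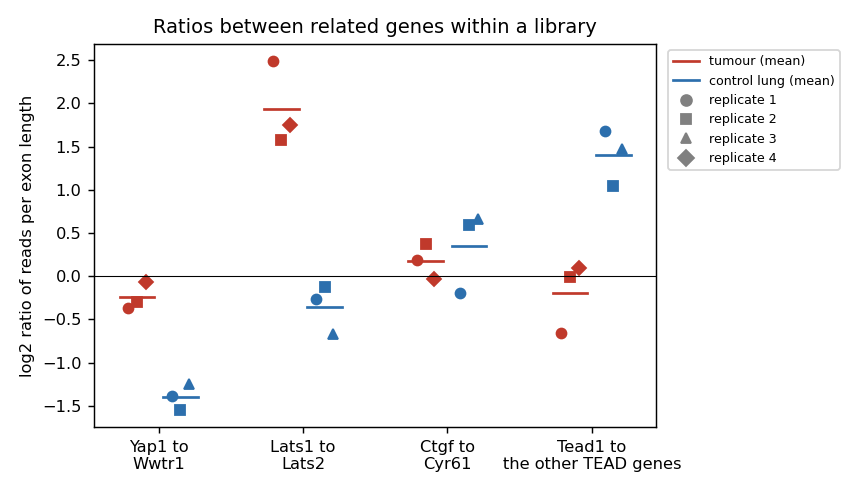
Log2 ratio of reads per exon length between related genes within each library, tumour on the left of control lung in each pair, with a line at the group mean. Lats1 to Lats2 has the widest gap between groups, 2.29 log2 units, and Ctgf to Cyr61 is the ratio whose groups overlap.

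Ordered by their level per exon length, the members ranked differently in the groups. The order depends on the length used. Yap1 was divided by 9257 exon bases, while its longest transcript (GENCODE M21) has 5282. For Lats1 these lengths were 7300 and 7209, so the place of Yap1 in either group is not settled. In tumours Lats1 was first at 18.4 ± 2.30 RPKM, followed by Wwtr1 at 14.0 ± 0.667, Yap1 at 11.8 ± 0.733, Ctgf at 10.8 ± 2.96, Cyr61 at 9.56 ± 2.65, Tead1 at 7.72 ± 0.772, Lats2 at 4.87 ± 0.992, Tead4 at 3.89 ± 0.194, Tead3 at 3.38 ± 1.14 and Tead2 at 1.64 ± 0.984 RPKM (SD, n = 3). Ranges of neighbours overlapped from Yap1 to Tead1 and from Lats2 to Tead2, so the order within those runs is not settled. The range of Wwtr1 also overlapped that of Ctgf, so the order of Wwtr1 and Ctgf is not settled either. In control lung the order was Ctgf at 48.1 ± 2.51 RPKM, Cyr61 at 39.5 ± 15.7, Wwtr1 at 27.4 ± 2.39, Tead1 at 21.5 ± 5.75, Lats2 at 15.6 ± 2.08, Lats1 at 12.2 ± 0.878, Yap1 at 10.4 ± 0.183, Tead4 at 4.11 ± 0.743, Tead3 at 2.31 ± 0.444 and Tead2 at 1.6 ± 0.187 RPKM (SD, n = 3). There the ranges of Ctgf and Cyr61, of Wwtr1 and Tead1, and of Tead1 and Lats2 overlapped.

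Other YAP target genes held members that fell and members that rose. Of 19 genes of a published YAP and TAZ target signature that are not members, 8 fell, 4 rose and 7 did not pass, with a median log2 fold change of -0.51. Among all genes tested, 23.8% fell and 18.1% rose, so the number that rose is near the background. Ankrd1, a muscle and stress-response ankyrin repeat protein, had 0.719, 2.23 and 1.91 CPM in tumours, against 44.7, 38.6 and 37.9 CPM in controls. Its log2 fold change was -4.65 ± 0.40 (SE, edgeR adjusted p = 6.78e-05), the largest fall of the list. Crim1, a transmembrane protein that binds BMPs, and Foxf2, a mesenchymal transcription factor, fell by 3.02 and 4.21 on the log2 scale. Of those that rose, Fjx1, the homologue of the Drosophila gene four-jointed, had 19.1, 8.12 and 11.1 CPM in tumours, against 2.77, 1.78 and 2.13 CPM in controls, a log2 fold change of 2.53 ± 0.36 (SE, edgeR adjusted p = 0.000819). Igfbp3, which binds insulin-like growth factors, rose by 1.46 and Dock5, a Rac exchange factor, by 1.28 on the log2 scale. Without tumour replicate 1 the number that rose was 7. Over all genes the number that rose also moved, to 2536 to 4210 with 1 library left out, beside 3627 with all libraries. The count of 7 is therefore not read as particular to the list.

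These falls accompanied large falls of endothelial, fibroblast and AT1 markers in the same libraries. The summed level of the 12 endothelial markers was 270 to 384 CPM in tumours and 3515 to 4638 CPM in control lung, a median log2 fold change of -3.35. The 10 fibroblast markers summed to 186 to 395 CPM in tumours and 2330 to 2688 CPM in controls, with a median of -3.51. The 8 AT1 markers summed to 764 to 1071 CPM in tumours and 2880 to 3607 CPM in controls, with a median of -2.24. The 8 smooth muscle and pericyte markers summed to 110 to 146 CPM in tumours and 372 to 645 CPM in controls, with a median of -2.15. No marker of these lists was at 0 reads over the tumours. The part of these cell types in the falls of Ctgf, Cyr61, Lats2, Tead1 and Wwtr1 was not tested.

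Upstream of LATS, the list of 14 genes for the kinase module and its activators counted 3 higher, 6 lower and 5 that did not pass, with a median log2 fold change of -0.32, beside 18.1% higher and 23.8% lower among all genes tested. The 6 lower genes include Rassf1, whose direction is uncertain, and the MST kinase gene Stk4. Stk4 had a log2 fold change of -0.75 ± 0.17 (SE, edgeR adjusted p = 0.00761). The other MST kinase gene, Stk3, had 0.05 ± 0.15 (SE) and did not pass (edgeR adjusted p = 0.810). Taok3, a kinase of the TAO family that phosphorylates MST kinases, had 186, 192 and 240 CPM in tumours, against 91.6, 79.0 and 78.0 CPM in controls, a log2 fold change of 1.31 ± 0.16 (SE, edgeR adjusted p = 0.000390). Its relative Taok2 fell by 0.98 on the log2 scale. Mob1b, a LATS co-activator, rose by 0.73, and Wwc1, the scaffold KIBRA, by 0.60; the call of Wwc1 was lost with tumour replicate 2 or 4 or control replicate 1 or 2 left out (adjusted p = 0.0791, 0.0676, 0.0672 and 0.0924). Wwc2, a relative of Wwc1, fell by 0.77 on the log2 scale. Rassf1, a scaffold that binds MST kinases, had -0.96 ± 0.13 (SE, edgeR adjusted p = 0.000716), but 44.8% of its exon bases lie in the antisense name Gm9917. Gm9917 had about as many reads as Rassf1 in controls (1676, 3258 and 2279 reads of Gm9917 beside 1596, 3281 and 2305 of Rassf1). Taking all of them off removes more than the shared reads and left 269, 262 and 164 reads in tumours and 0 (a negative value set to 0), 23 and 26 in controls, so the change of Rassf1 itself could not be measured.

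Of 8 measured cadherin and polarity genes, 3 rose, 2 fell and 3 did not pass, with a median of 0.34, beside 18.1% higher and 23.8% lower among all genes tested. Fat1 and Fat4, which encode giant cadherins, changed in opposite directions. Fat1 had 508, 495 and 442 CPM in tumours, against 213, 228 and 244 CPM in controls (log2 fold change 1.08 ± 0.15, SE, edgeR adjusted p = 0.000787). Fat4 had 11.7, 14.7 and 13.2 CPM in tumours, against 102, 123 and 138 CPM in controls (log2 fold change -3.20 ± 0.18, SE, edgeR adjusted p = 1.48e-05). Dchs1, the cadherin that binds FAT4, fell by 1.36 on the log2 scale, while the apical polarity genes Crb3 and Pard3 rose by 1.04 and 0.65. Of 8 genes for proteins that bind YAP, TAZ or LATS, 1 rose, 4 fell and 3 did not pass, with a median of -0.67, against the same background; with so few genes, neither count is read as particular to its list. Amotl2, an angiomotin that holds YAP at junctions, had 31.7, 40.7 and 37.3 CPM in tumours, against 98.8, 94.3 and 128 CPM in controls (log2 fold change -1.55 ± 0.18, SE, edgeR adjusted p = 0.000261). Ptpn14, a phosphatase that binds YAP, and Ajuba, a LIM protein that restrains LATS (listed as Jub), fell by 1.26 and 1.07 on the log2 scale, and Limd1, a related LIM protein, rose by 1.07. Amotl2 and Ptpn14 are also on the target list.

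Of 4 Vgll genes, whose products bind TEAD proteins, only Vgll3 and Vgll4 had enough reads to be tested. Vgll2 had 8, 7 and 24 reads in tumour replicates 1, 2 and 4 and 0 in each control. Vgll1 had 2 reads in tumour replicate 1 and 0 in every other library. Vgll4, which competes with YAP for TEAD, had 123, 69.2 and 78.8 CPM in tumours, against 37.7, 41.7 and 44.6 CPM in controls, a log2 fold change of 1.13 ± 0.23 (SE, edgeR adjusted p = 0.00453). Vgll3 had 1.55, 4.58 and 3.99 CPM in tumours, against 25.3, 21.6 and 25.1 CPM in controls, a log2 fold change of -2.83 ± 0.38 (SE, edgeR adjusted p = 0.000564). For both tested genes the groups were apart, with tumour replicate 1 the highest library of Vgll4 and the lowest of Vgll3.

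**Figure D5:**
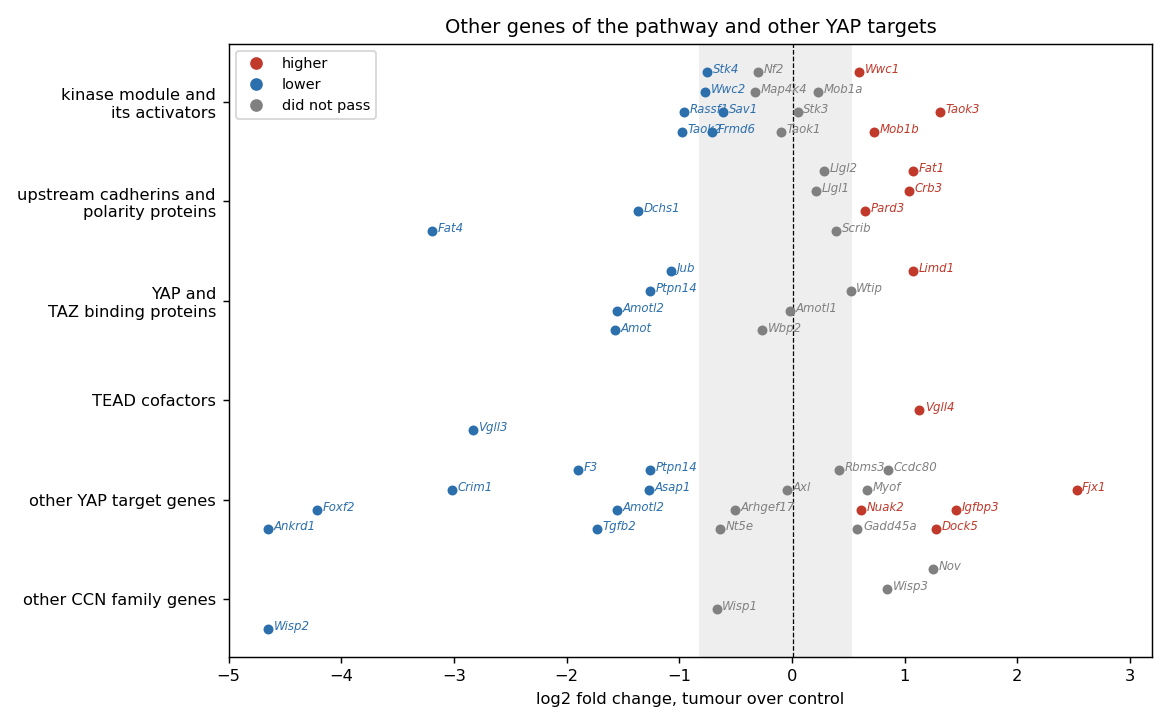
Log2 fold change, tumour over control, of each tested gene in 6 lists of the pathway (1 point per gene), coloured by whether it was higher, lower or did not pass; the dashed line is the median of all genes tested and the grey band runs from -0.81 to 0.52, their lower to upper quartile. Other YAP targets spread from -4.65 for Ankrd1 to 2.53 for Fjx1.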

How the data were processed

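The authors deposited raw counts of reads for each gene name in 6 library columns, beside an exon length. Counting was by featureCounts 1.6.5, per the file headers, over GENCODE vM1 exons grouped by gene name; a read overlapping several names counted for each, no strand setting was given, and multi-mapping reads were not requested. STAR, R 3.6.0, edgeR and limma, and the builds mm9 and GRCm38, are listed in the submitters' processing notes; gene coordinates are those of the table's annotation (mm9). Which of these builds the reads were aligned to is not stated in the header or labels. Counts are read as if it was mm9; reads aligned to GRCm38 would fall on shifted positions. Xist and the Y-linked genes were high in opposite libraries, and lung cell markers had high counts. Each column was assigned to its library by name.

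Genes were tested with edgeR 4.0.16 in R 4.3.3: filterByExpr (minimum count 10), TMM scaling, the quasi-likelihood F test with group as the only term, all 6 libraries, and Benjamini-Hochberg adjustment. Standard errors come from the F statistic. CPM and RPKM are after TMM scaling. The fit was also run on simulated data in which few genes changed, as many up as down. That run does not test the scaling for data in which 42.0% of genes changed. Ratios between genes were compared with exact permutation tests. Named genes are all 10 members and, of each pathway list, up to 3 higher and 3 lower genes with the smallest p. Likeness between genes is Pearson's r of log2 CPM (prior count 2). Other genes named were chosen after their values were seen. These include the sex-linked ones, those given as exceptions to the motif, Stk3, Stk4, Vgll1 and Vgll2. Members and lists were chosen with earlier results of these data known. Alternatives were DESeq2 1.42.0, limma-voom (limma 3.58.1), other scalings, no filter, other thresholds, leaving out libraries singly, blocking on replicate number and, added after seeing the data, removal of antisense reads. Promoter sequences are from RefSeq (GRCm38.p6). The floor of 3 reads covers counting error only.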

Additional observations from a re-analysis of the deposited data

How the results depend on the processing

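The 5 lower members kept their direction under all 15 alternatives tried for each (16 for Ctgf), and Tead1, Lats2, Ctgf and Cyr61 also kept their call. Wwtr1 lost its call against a 2-fold change (adjusted p = 0.873) and with the replicate block (0.0516). With each library left out, 6 members changed, 1 higher and 5 lower, in every case. The number of members higher in tumours was 0 with library totals only, at an adjusted p under 0.01, against a 2-fold change and with the replicate block, since Lats1 lost its call there. Scaling by totals moved the median of all genes by -0.12 on the log2 scale. Signs turned for genes that did not pass: Tead2 had -0.11 with limma-voom, -0.0449 with library totals, and -0.54 to 0.34 with 1 library left out (below 0 when that was replicate 1 of either group). Tead4 had 0.065 with the replicate block and -0.15 to 0.11 with 1 library left out (above 0 when that was control replicate 3). Rassf1 turned to 3.79 with all reads of its antisense name removed, a value that rests on over-subtracted controls and is no estimate of its change. The cause of these changes was not tested, beyond the fewer samples or stricter threshold of the alternative itself.

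Of all genes tested, 6421 to 9436 changed with 1 library left out, 2536 to 4210 higher and 3870 to 5226 lower. At an adjusted p under 0.01, 2073 were higher. Against a 2-fold change 3965 changed, 1056 higher and 2909 lower. In the same test the lists counted, higher and lower, 0 and 0 for the kinase module, 0 and 1 for cadherins and polarity, and 0 and 1 for YAP and TAZ binding proteins, with 0 TEAD cofactors and 1 other YAP target higher. Labels give both groups replicates 1 and 2 but say nothing of a shared animal or day. Deviations from the group means correlated at -0.17 and -0.00461 between same-numbered libraries. With only 2 such pairs these values cannot show whether the libraries are paired. The main fit did not pair them, and results with the replicate block are given beside it. With the replicate block, which leaves 1 residual degree of freedom, 3641 genes changed, 1092 higher and 2549 lower; in the lists, 1 kinase module gene was higher and 0 lower, 1 cadherin or polarity gene lower, 2 binding proteins lower and 0 TEAD cofactors higher. TEAD cofactors counted 2 higher with DESeq2 and with no low-count filter. Other CCN genes counted 1 higher and 2 lower with DESeq2, 2 lower with limma-voom, 1 higher with upper-quartile scaling and 1 higher with no filter. Leaving out 1 library gave 3 to 7 other YAP targets higher, and 0 to 1 other CCN genes higher and 1 to 2 lower. Differences in the 4 ratios kept their sign in every alternative: with a library left out they ran from 1.06 to 1.22 for Yap1 to Wwtr1, 2.02 to 2.47 for Lats1 to Lats2, -0.46 to -0.02 for Ctgf to Cyr61 and -1.77 to -1.35 for Tead1 to the other TEAD genes. With 3 libraries per group none of the ratios could reach 0.05.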

Other observations

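Of the 4 other CCN family genes, relatives of Ctgf and Cyr61, 1 fell and 3 did not pass. Among all genes tested 23.8% fell and 18.1% rose, so this count is not read as particular to the family. Wisp2, a secreted CCN protein known from fibroblasts, had 2.09, 1.94 and 1.15 CPM in tumour replicates 1, 2 and 4, against 36.9, 45.4 and 48.4 CPM in control replicates 1, 2 and 3, a log2 fold change of -4.65 ± 0.27 (SE, edgeR adjusted p = 1.63e-05). Nov had 5.72, 20.7 and 16.0 CPM in tumours, against 7.60, 5.96 and 4.32 CPM in controls, with tumour replicate 1 inside the range of the controls (log2 fold change 1.25 ± 0.44, SE, edgeR adjusted p = 0.0530). Wisp1 had 4.54, 3.25 and 5.75 CPM in tumours, against 6.25, 7.93 and 7.33 CPM in controls, all tumours below, without passing (edgeR adjusted p = 0.0771).

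Likeness over the 6 libraries was sought among 10860 abundant genes, with clone and predicted names left out. Those most like Ctgf were Pde8a, a cyclic AMP phosphodiesterase, Gucy1a3, a guanylate cyclase subunit, and Ankrd1, with Pearson correlations of log2 CPM of 0.999 for each. Ankrd1 is itself on the YAP target list. Those most like Wwtr1 were Man2a1, Rhoc and Mustn1 (0.999, 0.999 and 0.998), those most like Cyr61 were Kcne2, mmu-mir-2134-4 and Tmem65 (0.998, 0.995 and 0.995), and those most like Yap1 were Exd1, Ubap2l and Ddx6 (0.993, 0.989 and 0.984). All such correlations rest on 6 libraries in 2 groups, so a gene that differs between the groups to a like degree scores high: 1121 genes exceeded 0.95 with Ctgf, 862 with Wwtr1, 235 with Cyr61 and 55 with Yap1. The name mmu-mir-2134-4 has 114 exon bases and was matched to no GENCODE M21 transcript, so the source of its reads could not be checked.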
